A study of Mus musculus with 8 samples.

Results

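The genes of lipid droplets and triglyceride turnover described here were 10 genes chosen by symbol, out of 16994 in the count table. They were the perilipins *Plin2*, *Plin3*, *Plin4* and *Plin5*, the diacylglycerol acyltransferases *Dgat1* and *Dgat2*, and the lipolysis genes *Pnpla2*, *Abhd5*, *Lipe* and *Mgll*. The rule used their symbols alone, and all 10 passed the filter on low counts, with 493 to 14559 estimated counts per library. They were read in 8 bulk RNA-seq libraries of male mouse hearts, 1 library for each of 2 genotypes, WT and TKO (whole-body knockout of TIGAR, a fructose bisphosphatase that curbs glycolysis), in each of 4 regions. The infarct, border and remote zones (I, B and R) came from hearts with myocardial infarction (MI) by permanent ligation of the left anterior descending artery at 16 weeks of age. The left ventricle libraries (LV) served here as the reference tissue. Their titles say only left ventricle heart tissue. The study speaks of normal left ventricle for the reference of an immunoblot, not for these libraries. The age and treatment of the mice behind the LV libraries, and the time from MI to collection of the RNA, were not given in the sources used here. RNA of 3 mice was pooled in each infarct zone library. Pooling for the other regions, and whether the 3 zones of a genotype came from the same hearts, was not stated. The study asked how loss of TIGAR affects the heart after MI. With 1 library per genotype and region, the tests below measure the spread between these libraries, not between mice.

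Cardiomyocytes burn fatty acids as their main fuel and hold a small, fast-turning store of triglyceride in cytosolic lipid droplets. DGAT enzymes add the last acyl chain to diacylglycerol. Perilipins coat the droplet surface and set the access of lipases. Lipolysis then runs in steps: ATGL (*Pnpla2*), switched on by its coactivator CGI-58 (*Abhd5*), removes the first acyl chain, hormone-sensitive lipase (*Lipe*) the next, and monoacylglycerol lipase (*Mgll*) the last. *Plin5* is the perilipin typical of oxidative muscle and links droplets to mitochondria, *Plin2* coats droplets in most cells, *Plin3* moves between cytosol and nascent droplets, and *Plin4* is found in adipose tissue and muscle.

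Total estimated counts ran from 27429240 to 33799249 per library. *Tigar* had 1066 to 2215 counts in the 4 WT libraries and 51 to 87 in the 4 TKO libraries, matching the labelled genotypes. The 10 cardiomyocyte markers summed to 34063 to 46819 CPM (counts scaled to library size, with TMM, the trimmed mean of M values) outside the infarct zone, against 10871 in the WT infarct library and 22140 in the TKO infarct library. Macrophage markers summed to 1788 and 1342 CPM in the WT and TKO infarct libraries and to 376 to 677 elsewhere. Fibroblast markers summed to 8710 and 7248 CPM in the infarct libraries and to 970 to 3200 elsewhere. Endothelial markers summed to 734 to 932 CPM over the 8 libraries. In bulk tissue, fewer cells of a type and less RNA per cell cannot be told apart. The WT LV library stood apart in adipocyte markers, whose sum was 163 CPM there and 21.6 to 41.5 CPM in the other 7 libraries.

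**Figure D1:**
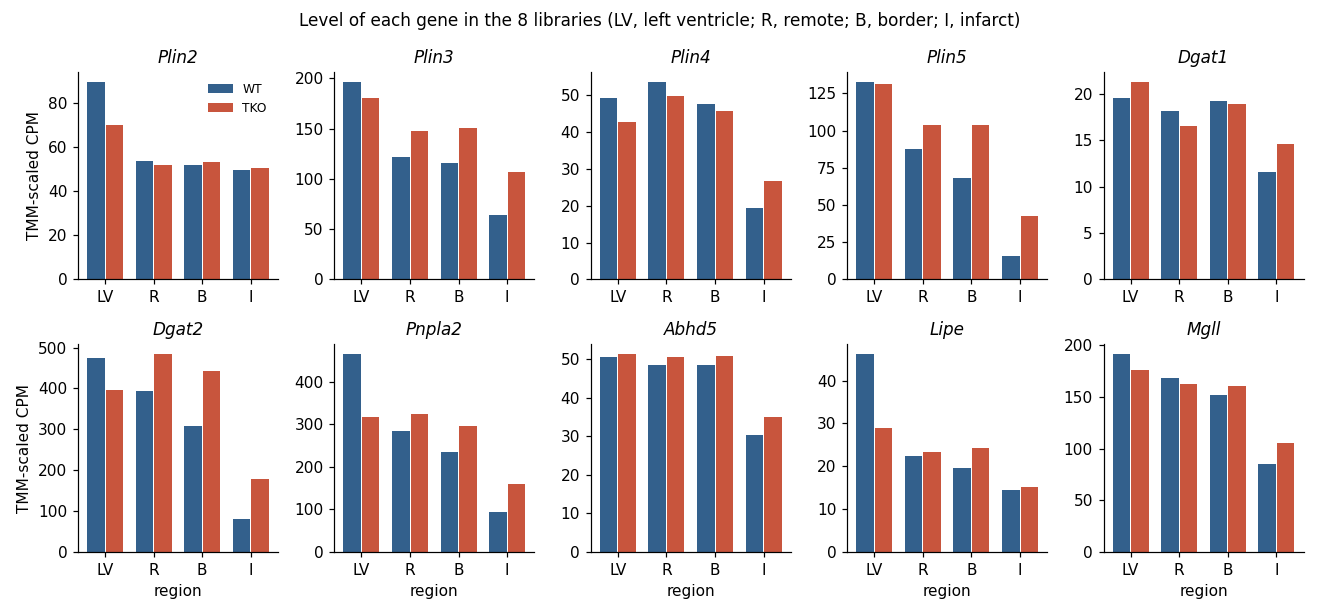
Level of each of the 10 genes (TMM-scaled CPM, linear axes from 0) in the 8 libraries, WT blue and TKO red, by region (LV, left ventricle; R, remote; B, border; I, infarct); each bar is 1 library. All 10 genes had both infarct bars below the other 6 on this scale. The share of all genes with such a separation was not computed. By edgeR, 28.7% of all genes tested were called lower in the infarct zone than in LV. *Plin2* was at 49.5 to 53.6 CPM in all 6 libraries of infarcted hearts. Scaled to total counts, infarct over LV was 0.987 to 1.07 for *Plin2*, *Abhd5* and *Dgat1* in both genotypes.

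Within a library, levels can be compared between genes only per length of transcript. Per kilobase of annotated exons, *Dgat2* and *Pnpla2* held the first and second ranks among the 10 genes in all 8 libraries, in either order. In the WT LV library they were at 210 and 177 CPM per kilobase. *Lipe* was last in every library, at 8.42 CPM per kilobase in WT LV, just under *Plin4* at 8.55, a gap for which 1 library gives no spread. The length was the union of all annotated exons of a gene, 5481 bases for *Lipe*. Which transcripts were in use was not determined, so ranks could differ with another length. *Plin5* ranked 3 of the 10 in all 6 libraries outside the infarct zone, and ranked 7 in the WT infarct library and 6 in the TKO infarct library. *Plin2* ranked 5 or 6 outside the infarct zone, 3 in the WT infarct library and 4 in the TKO infarct library. The order of the other genes moved by at most 2 ranks.

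The infarct zone was first set against LV over both genotypes. All 10 genes fell, with adjusted p-values of 0.00214 to 0.0069 (edgeR quasi-likelihood test, additive model of genotype and region, Benjamini-Hochberg over 12999 genes). Of all genes tested, 28.7% were called lower in this comparison. The falls spread widely around this common direction: *Plin5* fell most and *Abhd5*, *Dgat1* and *Plin2* least. TMM scaling bears on that direction, because the infarct libraries had TMM factors of 1.54 (WT) and 1.26 (TKO) against 0.866 to 0.955 in the others. With scaling to total counts, which raised infarct over LV by 0.83 in WT and 0.54 in TKO on the log2 scale, 5 of the 10 genes were called lower (*Plin3*, *Plin5*, *Pnpla2*, *Dgat2* and *Lipe*; 68.9% of all genes were called, either way), and *Plin2*, *Abhd5* and *Dgat1* had differences just above 0. Without the WT LV library, or without the TKO LV library, all 10 were still called lower.

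**Figure D2:**
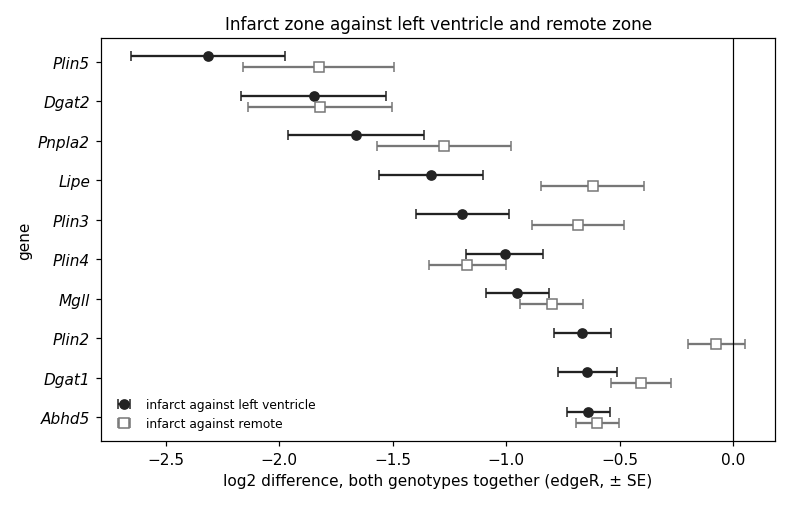
Log2 difference (edgeR, both genotypes together, ± SE, 3 residual degrees of freedom) of the infarct zone from left ventricle (filled circles) and from the remote zone (open squares) for the 10 genes, ordered by the first. *Plin5* had the lowest difference, -2.31, and *Abhd5* the highest, -0.64; *Plin2* was at -0.08 against the remote zone. Scaled to total counts, *Plin2*, *Abhd5* and *Dgat1* turned to just above 0 against left ventricle.

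Among the perilipins, *Plin5* (ENSMUSG00000011305, chr17:56111601-56117596) was at 133 CPM in WT LV and 131 in TKO LV. It was at 87.8 and 104 CPM in the WT and TKO remote zones, 68.2 and 103 in the border zones, and 15.6 and 42.5 in the infarct zones. The infarct libraries thus lay below all others, and the WT one was the lowest. The fitted difference of infarct from LV was -2.31 ± 0.34 (log2, SE; adjusted p = 0.00214). *Plin2* (ENSMUSG00000028494, chr4:86648386-86670060) was at 89.4 CPM in WT LV and 69.8 in TKO LV, and at 49.5 to 53.6 in all 6 libraries of infarcted hearts. On the TMM scale its levels therefore separated the LV libraries from the zones of infarcted hearts, and hardly separated the zones from each other. With total counts they did not: infarct over LV was 0.987 (WT) and 1.05 (TKO), and remote over LV was 0.622 and 0.763. The fitted difference of infarct from LV was -0.67 ± 0.13 (adjusted p = 0.00504), and that of infarct from remote was -0.08 ± 0.13 (adjusted p = 0.639). *Plin3* (ENSMUSG00000024197, chr17:56277476-56292873) fell by 1.19 on the log2 scale (adjusted p = 0.00358), from 180 to 196 CPM in LV to 63.6 (WT) and 106 (TKO) in the infarct zone. *Plin4* (ENSMUSG00000002831, chr17:56100591-56109803) fell by 1.01 on the log2 scale (adjusted p = 0.00338), with 19.4 and 26.6 CPM in the infarct libraries and 42.8 to 53.7 in the other 6. *Plin4* and *Plin5* are neighbours on the minus strand of chromosome 17, with 1797 bases between them in the GENCODE annotation of GRCm38, and *Plin3* lies 159879 bases beyond *Plin5*. The adjacent pair did not move alike outside the infarct zone: *Plin4* was at 47.6 and 53.7 CPM in the WT border and remote zones, near its 49.4 CPM in WT LV, where *Plin5* was at 68.2 and 87.8 against 133 CPM.

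The sequence before the start site is shown for *Plin5*, the gene that fell most, and for *Plin2* and *Abhd5*, which with *Dgat1* fell least, since each holds the nuclear receptor core site AGGTCA, the letters bound by PPAR and RXR when 2 copies stand 1 base apart. Each run gives the first 200 bases of the RefSeq window (GRCm38.p6) that starts 250 bases before the gene's start, 5′ to 3′ on the gene's strand, with the core site, on either strand, in capitals.
Plin5, chr17:56117599-56117798, minus strand: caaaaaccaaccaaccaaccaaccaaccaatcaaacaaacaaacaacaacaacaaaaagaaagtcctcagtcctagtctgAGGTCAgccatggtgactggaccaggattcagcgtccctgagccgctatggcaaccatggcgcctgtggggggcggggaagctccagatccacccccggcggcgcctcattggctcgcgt
Plin2, chr4:86670110-86670309, minus strand: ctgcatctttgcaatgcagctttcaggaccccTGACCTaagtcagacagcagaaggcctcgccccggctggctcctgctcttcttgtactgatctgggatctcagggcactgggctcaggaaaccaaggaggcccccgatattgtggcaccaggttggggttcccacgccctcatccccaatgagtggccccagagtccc
Abhd5, chr9:122351366-122351565, plus strand: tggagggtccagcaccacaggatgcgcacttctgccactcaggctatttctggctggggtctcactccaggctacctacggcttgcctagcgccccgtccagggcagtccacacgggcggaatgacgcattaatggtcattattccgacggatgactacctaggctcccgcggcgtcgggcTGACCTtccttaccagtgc
In *Plin2* and *Abhd5* the capitals read TGACCT, the same site on the opposite strand. RefSeq windows were at hand for 8 of the 10 genes (11 windows). *Dgat1* and *Dgat2* had none. The core site was present in the 250 bases before the start in the 3 windows shown and in no other window of the 10 genes, against 14% of all 32851 windows searched. The repeat of 2 core sites 1 base apart was in none of the 11 windows and in 0.0335% of all. TCAAGGTCA, the longer site of the estrogen-related receptors, which contains the core site, was also in none of the 11 and in 0.387% of all. These are matches of letters, on both strands, in short windows.

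Both acyltransferases fell, from very different levels. *Dgat2* (ENSMUSG00000030747, chr7:99153658-99182719) was at 474 and 397 CPM in the WT and TKO LV libraries, 394 and 484 in the remote zones, 307 and 443 in the border zones, and 80.9 and 178 in the infarct zones. The infarct libraries were again the lowest, and TKO was above WT in each of the 3 zones of infarcted hearts but not in LV. The fitted difference of infarct from LV was -1.85 ± 0.32 (log2, SE; adjusted p = 0.00365). *Dgat1* (ENSMUSG00000022555, chr15:76502015-76511953) was far lower and moved little, at 16.5 to 21.3 CPM outside the infarct zone and at 11.6 (WT) and 14.6 (TKO) within it. Its fitted difference was -0.64 ± 0.13 (adjusted p = 0.0069).

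Among the lipolysis genes, *Pnpla2* (ENSMUSG00000025509, chr7:141455198-141460743) was at 465 and 318 CPM in the WT and TKO LV libraries, 283 and 324 in the remote zones, 236 and 295 in the border zones, and 94.2 and 160 in the infarct zones. It fell by 1.66 on the log2 scale (adjusted p = 0.00426), and the WT LV library stood above all others. Its coactivator *Abhd5* (ENSMUSG00000032540, chr9:122351608-122381524) was nearly level outside the infarct zone, at 48.4 to 51.3 CPM in 6 libraries, and at 30.3 and 35.1 in the WT and TKO infarct libraries. The fitted difference was -0.64 ± 0.10 (adjusted p = 0.00224). *Lipe* (ENSMUSG00000003123, chr7:25379527-25398710) was at 46.1 CPM in WT LV, 28.9 in TKO LV, 19.5 to 24.2 in the border and remote zones, and 14.6 and 15.1 in the infarct zones. The genotypes were therefore alike in the infarct zone and apart in LV for this gene on the TMM scale. With total counts TKO over WT was 0.846 in the infarct zone and 0.625 in LV. The fitted difference of infarct from LV was -1.33 ± 0.23 (adjusted p = 0.00353). *Mgll* (ENSMUSG00000033174, chr6:88724412-88828360) fell by 0.95 on the log2 scale (adjusted p = 0.00216), from 191 and 176 CPM in LV to 85.2 and 105 in the infarct zone.

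Against the remote zone of infarcted hearts, 8 of the 10 genes were lower in the infarct zone by the same test, where 24.8% of all genes were. The exceptions were *Plin2* and *Lipe*, at -0.62 ± 0.23 (log2, SE; adjusted p = 0.0603). The count ran from 3 to 9 when 1 library at a time was left out, and was lowest without the WT remote library (18% of all genes called, either way), when *Plin4*, *Abhd5* and *Dgat2* were called; it was 5 without the WT infarct library and 5 without the TKO remote library. With total counts (66.3% of all genes called, either way), 4 genes were lower (*Plin4*, *Plin5*, *Pnpla2* and *Dgat2*) and *Plin2* was higher by 0.56 on the log2 scale (adjusted p = 0.00557).

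Border and remote zones were each compared with LV to see whether the genes differed in tissue outside the infarct. In the border zone edgeR called none of the 10 (0.715% of all genes were called). An unadjusted p under 0.05 was found for 3 of the 10 and for 2330 of 12999 genes. DESeq2 called 1 (4.43% of all genes). That gene was *Plin2*, at -0.60 in both tools (adjusted p = 0.0983 by edgeR and 0.00811 by DESeq2). Without the TKO LV library, edgeR called *Plin2* and *Lipe* lower in the border zone (adjusted p = 0.0326 and 0.0304; 2.96% of all genes called). In the remote zone edgeR called none of the 10 and 0% of all genes. An unadjusted p under 0.05 was found for 3 of the 10 and for 1375 of 12999 genes. DESeq2 called 1 of the 10 (1.25% of all genes), again *Plin2* (adjusted p = 0.0235). The ratios within a genotype have counting error only and no replicate, and all WT ratios share the WT LV library, which stood apart in adipocyte markers. In WT, *Lipe* was at least 2-fold lower in the border zone (0.423, 95% counting interval 0.383 to 0.466, where 1.82% of all genes were at least 2-fold lower) and also in remote tissue (0.484, interval 0.44 to 0.532, where 2.08% were; 0.503 with total counts). *Pnpla2* was at 0.507 and *Plin5* at 0.514 in the WT border zone. The median of the 10 genes was 0.619 (border) and 0.747 (remote) in WT, and 0.898 and 0.87 in TKO, each against its own LV library, with medians over all genes of 0.988 to 1.01.

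Ratios of counts within a library do not depend on how libraries are scaled, and were formed for pairs of genes with linked roles, chosen after their levels were seen. *Plin2* had 0.499 to 0.761 counts per count of *Plin5* in the 6 libraries outside the infarct zone. In the infarct zone it had 3.17 in WT (95% counting interval 2.90 to 3.46) and 1.18 in TKO (1.11 to 1.27), so the infarct libraries lay above the range of the others and apart from each other. Expressed per kilobase, *Plin5* made up 32.6% to 40.2% of the 4 perilipins outside the infarct zone, 13.8% in the WT infarct library and 25.2% in the TKO infarct library, while *Plin2* made up 48.1% in the WT infarct library and 21.7% to 33% elsewhere. *Dgat2* had 16 to 29.3 counts per count of *Dgat1* outside the infarct zone, 6.95 in the WT infarct library and 12.2 in the TKO one. *Pnpla2* had 4.87 to 9.22 counts per count of its coactivator *Abhd5* elsewhere, against 3.10 in the WT infarct library and 4.57 in the TKO one. Against *G0s2*, the peptide inhibitor of ATGL, *Pnpla2* had 14.7 counts per count in WT LV, 4.97 to 6.61 in the other 5 libraries outside the infarct zone, against 2.89 in the WT infarct library and 4.52 in the TKO one. In each of these 4 pairs the WT infarct library lay farther than the TKO infarct library from the range of the other 6.

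**Figure D3:**
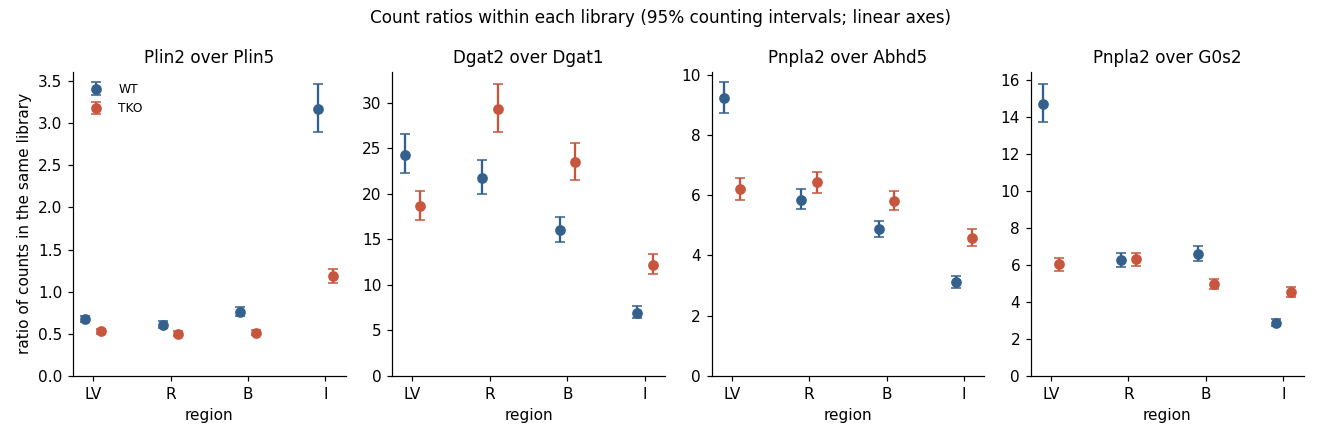
Ratio of 2 genes' counts within each library (linear axes from 0; bars, 95% counting intervals) for 4 pairs, WT blue and TKO red, by region. The WT infarct library had 3.17 counts of *Plin2* per count of *Plin5*, and the 6 libraries outside the infarct zone had 0.499 to 0.761. The intervals cover counting error only.

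The comparison of the genotypes was made region by region and over all regions. Over the 4 regions edgeR called none of the 10 genes (0.138% of all genes were called). An unadjusted p under 0.05 was found for 1 of the 10, *Plin5*, and for 2108 of 12999 genes. DESeq2 called none of the 10 either (2.63% of all genes). *Plin5* was higher in TKO by 0.55 ± 0.23 (log2, SE; adjusted p = 0.307), *Dgat2* by 0.43 ± 0.22 (adjusted p = 0.371) and *Plin3* by 0.32 ± 0.14 (adjusted p = 0.334). None of these passed the test, and 6 of the other genes had differences between -0.09 and 0.09.

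In the infarct zone, TKO over WT was above 1 for all 10 genes, and for 51% of all genes tested. The median of the 10 was 1.31 (1.01 over all genes). For 8 of them the 95% counting interval lay above 1. The share of all genes with such an interval was not computed. *Plin5* was at 2.72 (2.48 to 2.98) and *Dgat2* at 2.21 (2.12 to 2.30). These were the 2 genes of the 10 that were at least 2-fold higher, where 2.42% of all genes were. *Pnpla2* (1.70), *Plin3* (1.68) and *Plin4* (1.37) followed, while *Lipe* (1.04, 0.924 to 1.17) and *Plin2* (1.02, 0.954 to 1.08) did not differ beyond counting error on the TMM scale. *Mgll* (1.24), *Dgat1* (1.25) and *Abhd5* (1.16) lay between. With total counts the median was 1.07, 7 of the 10 were above 1, and 1 stayed at least 2-fold higher, *Plin5* at 2.22, with *Dgat2* at 1.80. *Plin2* (0.829), *Lipe* (0.846) and *Abhd5* (0.942) were then below 1. In the border zone the median was 1.15, with *Plin5* at 1.52 (1.43 to 1.60) and *Dgat2* at 1.44 (1.41 to 1.48). For remote tissue it was 1.04, with *Dgat2* at 1.23, *Plin3* at 1.21 and *Plin5* at 1.18. None of the 10 differed by 2-fold or more in the border zone (4.48% of all genes did, either way) or in remote tissue (3.53%).

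**Figure D4:**
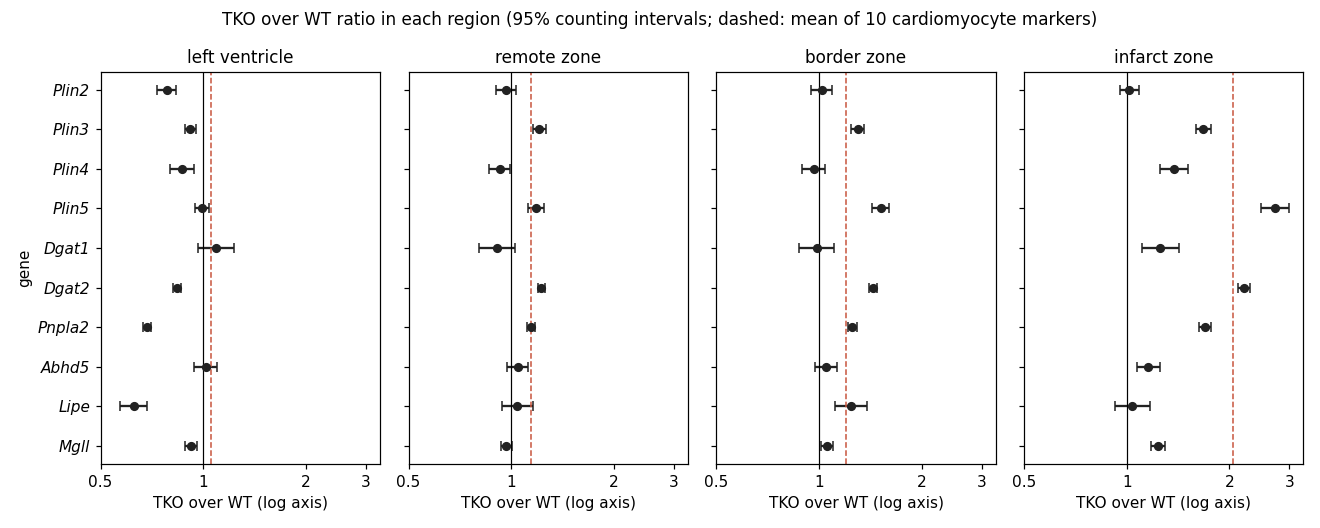
TKO over WT ratio of the 10 genes in each region (log axis; points, 1 library over 1 library; bars, 95% counting intervals; dashed line, the same ratio for the mean of 10 cardiomyocyte markers). In the infarct zone *Plin5* (2.72) and *Dgat2* (2.21) lay to the right of the marker line at 2.05, within the 1.64 to 3.41 of single markers, and the other 8 to the left.

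Whether the genotype difference in the infarct zone departed from that in the other 3 regions was tested with an interaction term. For *Plin5* the departure was 1.17 ± 0.27 (log2, SE; adjusted p = 0.408), for *Dgat2* 0.95 ± 0.32 (adjusted p = 0.539) and for *Pnpla2* 0.77 ± 0.37 (adjusted p = 0.753). All 10 departures were positive, and edgeR called none of them, with 3 at an unadjusted p under 0.05, where 1023 of 12999 genes were. The share of all genes with a positive departure was not computed. EdgeR called 1 gene of 12999 (0.00769%), with 2 residual degrees of freedom. DESeq2 called 2 of the 10 (2.22% of all genes), *Plin5* (adjusted p = 0.00585) and *Dgat2* (adjusted p = 0.0326), and gave no adjusted p for 4. Without either LV library in turn, edgeR called the same 4 genes of the 10 (7.03% and 7.15% of all genes), *Plin4*, *Plin5*, *Pnpla2* and *Dgat2*, with adjusted p-values for *Plin5* of 0.00409 (WT LV left out) and 0.00394 (TKO LV left out). Both refits have 1 residual degree of freedom. They compare the infarct zone with the border and remote zones only, since a lone LV library is fitted by its own region term, so their agreement follows from the design.

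Cardiomyocyte markers moved with the genotype in the infarct zone. The geometric mean of the 10 markers was 2.05 times as high in the TKO as in the WT infarct library, 1.2 times for border tissue, 1.15 for remote tissue and 1.05 for LV. In the infarct zone single markers ran from 1.64 to 3.41. Divided by that mean, *Plin5* was at 1.33 and *Dgat2* at 1.08 for TKO over WT in the infarct zone, and the other 8 genes were below 1, down to 0.508 for *Lipe* and 0.497 for *Plin2*. The markers fell too: infarct over LV was 0.248 in WT and 0.48 in TKO for the marker mean. Divided by it, infarct over LV was above 1 for 7 of the 10 genes in WT (median 1.45) and 8 in TKO (median 1.24). *Plin5* was at 0.476 in WT and 0.675 in TKO, *Dgat2* at 0.689 and 0.937, and *Pnpla2* at 0.819 and 1.05. *Abhd5* (2.43), *Dgat1* (2.41) and *Plin2* (2.24) were the highest of the 10 in WT on that scale. Single markers ran from 0.12 to 0.345 for infarct over LV in WT and from 0.37 to 0.634 in TKO. *Plin5*, at 0.118 and 0.324, lay just below the lowest marker in WT and below it in TKO, while *Dgat2*, at 0.171 and 0.45, lay within the range of the markers in both. How much of the differences the cardiomyocyte share of the RNA carries was not tested.

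In LV the genotype difference ran the other way for most of the genes. TKO over WT was below 1 for 8 of the 10, while 51.3% of all genes tested were above 1. The median of the 10 was 0.892 (1.01 over all genes). The lowest were *Lipe* (0.626, 95% counting interval 0.571 to 0.686), *Pnpla2* (0.684, 0.665 to 0.703) and *Plin2* (0.78, 0.734 to 0.83). *Plin5* (0.989, 0.944 to 1.04), *Abhd5* (1.02, 0.942 to 1.10) and *Dgat1* (1.09, 0.968 to 1.23) did not differ beyond counting error. None of the 10 differed by 2-fold or more, where 5.51% of all genes did, either way. The departure of the LV difference from that in the other 3 regions, a test added after these values were seen, was -0.98 ± 0.28 (log2, SE) for *Pnpla2* (adjusted p = 0.191) and -0.82 ± 0.16 for *Lipe* (adjusted p = 0.101). EdgeR called none of the 10 (0.646% of all genes), with 5 at an unadjusted p under 0.05, where 2181 of 12999 genes were. DESeq2 called 1 (2.15% of all genes), *Pnpla2* (adjusted p = 0.0472). Without either infarct library in turn, edgeR called 4 of the 10 (11.5% and 10.7% of all genes), *Plin3*, *Pnpla2*, *Dgat2* and *Lipe*, with adjusted p = 0.00126 and 0.00216 for *Pnpla2*. These refits too have 1 residual degree of freedom and are nearly the same comparison by design, LV against the border and remote zones.

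Most adipocyte markers moved with this difference. *Slc36a2* did not, at 20.8 CPM in WT LV and 20.7 in TKO LV. The other 9 summed to 142 CPM in WT LV, 2.86 in TKO LV and 9.73 to 36.6 in the zones of infarcted hearts. *Adipoq*, which encodes adiponectin, had 370 counts in WT LV, 6 in TKO LV and 17 to 109 in the 6 other libraries. *Plin1*, the perilipin of adipocytes, had 34 counts in WT LV and 0 in each of the other 7. *Cidec*, which fuses droplets in fat cells, had 388 counts in WT LV and 6 in TKO LV. None of the 10 adipocyte markers was at or under the floor of 3 counts in WT LV, and 4 were in TKO LV. *Lipe*, *Pnpla2*, *Plin2*, *Plin3*, *Plin5* and *Mgll*, 6 of the 10 genes, were highest in the WT LV library. *Plin4* was highest in the WT remote library (53.7 CPM, against 49.4 in WT LV). *Dgat2* was highest in the TKO remote library (484 CPM, against 474 in WT LV), and *Abhd5* and *Dgat1* in TKO LV. The part of adipocyte RNA in the LV values of the 10 genes was not tested. In TKO, where the 9 markers were higher in the infarct zone (19.4 CPM) than in LV, infarct over LV was 0.324 for *Plin5*, 0.45 for *Dgat2*, 0.504 for *Pnpla2*, 0.523 for *Lipe* and 0.722 for *Plin2*. With total counts these ratios were 0.471, 0.654, 0.733, 0.761 and 1.05, so that of *Plin2* turned. At least 2-fold lower were 2 of the 10 in TKO (7.65% of all genes) and 7 of the 10 in WT (14.9%), and with total counts 1 (*Plin5*) in TKO and 3 (*Plin5*, *Dgat2* and *Pnpla2*) in WT.

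**Figure D5:**
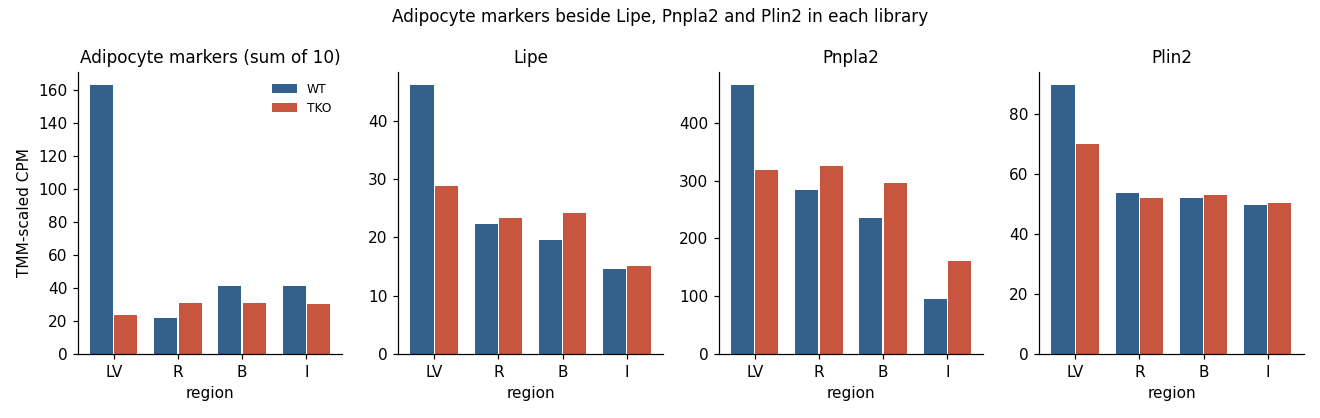
Summed level of 10 adipocyte markers and levels of *Lipe*, *Pnpla2* and *Plin2* (TMM-scaled CPM, linear axes from 0) in each library, WT blue and TKO red, by region. The adipocyte sum was 163 CPM in the WT LV library and at most 41.5 elsewhere, and the same library was the highest for all 3 genes, as it was for 6 of the 10 genes; *Slc36a2* made up 20.7 of the 23.6 CPM in TKO LV.

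The other genes of the pathway were read from 4 fixed lists in the infarct zone against LV, where 28.7% of all genes were lower and 28.2% higher. Of 17 genes of triglyceride synthesis tested, 11 fell and 4 rose. *Acsl1*, the main acyl-CoA synthetase of heart, fell by 1.76 on the log2 scale (adjusted p = 0.00386) and the lysophosphatidate acyltransferase gene *Agpat3* by 1.22 (adjusted p = 0.00158), while *Acsl5* and *Acsl4*, synthetases widely expressed outside muscle, rose by 0.95 and 0.71. Of 10 genes of droplet formation and coat, 5 fell and 1 rose. *Fitm2* and *Fitm1*, which help droplets bud from the endoplasmic reticulum, fell by 1.97 and 1.91, and the seipin gene *Bscl2* rose by 0.35 (adjusted p = 0.0428). Of 13 genes of lipolysis and its control, 4 fell and 3 rose. *Prkaca*, a catalytic subunit of protein kinase A, fell by 1.23 and the lipase gene *Ces1d*, whose reads could be shared with similar neighbouring genes, by 2.05, while *Lipa*, the lysosomal acid lipase, rose by 0.91 (adjusted p = 0.000938). *G0s2* was at -0.26 (adjusted p = 0.267) and *Hilpda*, the other inhibitor of ATGL on the list, at -0.13 (adjusted p = 0.652). Of 9 genes for use of circulating triglyceride, 5 fell and 2 rose, with *Lpl*, lipoprotein lipase, at -1.60 and *Vldlr*, the receptor for very low density lipoprotein, at -1.49, and the scavenging receptor gene *Lrp1* at 2.40. Macrophage and fibroblast markers (10 of 10 in each list) rose in the same comparison, and 10 of 10 cardiomyocyte markers fell. None of the genes on the 4 lists was called for genotype over all regions. For TKO over WT in the infarct zone, where single ratios have no test, 11 of 17 genes of triglyceride synthesis, 6 of 10 of droplet formation and coat, 7 of 13 of lipolysis and its control and 6 of 9 for use of circulating triglyceride were above 1, with medians of 1.20, 1.28, 1.09 and 1.13 (1.01 over all genes). Of all genes tested, 51% were above 1 there. *Angptl4*, an inhibitor of lipoprotein lipase, was the 1 gene of the 4 lists called in the border zone against LV, at -2.49 (adjusted p = 0.0299).

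Across the 8 libraries the gene most like each member was sought by Pearson's r of log2(CPM + 1). These correlations share the libraries and rest largely on the infarct zone, so r over the 6 libraries outside it is given beside that of closest genes and of pairs of members. *Plin5* was closest to *Pfkm*, the muscle phosphofructokinase (r = 0.999, and 0.993 over 6 libraries). *A530016L24Rik* (0.999 and 0.989) came next, and then *Bckdha*, a subunit of the branched-chain ketoacid dehydrogenase (0.999 and 0.992). *Mgll* was closest to *Pink1* (0.999 and 0.986), *Dgat2* to *Nsun4* (0.998 and 0.961) and *Pnpla2* to *Fbxo31* (0.998 and 0.986). *Plin2* was closest to *Tdp2* (0.98 and 0.983) and *Lipe* to *Chp1* (0.985 and 0.972). Each closest gene was picked from many for its high r, and every member had one, at 0.98 to 0.999 over 8 libraries. How high the best r would be for unrelated genes was not tested. Among the members, *Plin5* and *Dgat2* had r = 0.979 over 8 libraries and 0.737 over 6, and *Lipe* and *Plin2* had 0.909 and 0.961. Against the cardiomyocyte marker mean, r over the 8 libraries was 0.992 for *Plin5*, 0.982 for *Dgat2*, 0.749 for *Lipe* and 0.501 for *Plin2*.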

How the data were processed

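Total RNA from mouse heart tissue was sequenced as 8 bulk libraries. The authors trimmed reads with Trim Galore 0.6.5, quantified transcripts with kallisto 0.46 against the mm10 transcriptome, and used tximport to reach gene level; the estimated counts per gene were deposited as whole numbers with no normalization. The labels also name edgeR 3.34.1 without a design. Here, genes averaging 1 CPM or more (12999 of 16994) were fitted with edgeR 4.0.16 (R 4.3.3; TMM, glmQLFit and glmQLFTest, two-sided, threshold 0.05 after Benjamini-Hochberg adjustment over all genes tested), with genotype and region as additive terms on all 8 libraries (3 residual degrees of freedom) or with an added genotype term for 1 region (2). Standard errors are the log2 difference over the square root of F. DESeq2 1.42.0 was the other tool. Ratios of 2 libraries were scaled by TMM, have exact (Clopper-Pearson) 95% intervals for counting error only and no test; they count as called at 2-fold or more after a prior count of 2. Gene positions and exon lengths came from GENCODE M21 on GRCm38, the assembly of mm10, and promoters from RefSeq (GRCm38.p6). The tests for genotype and for the departure in the infarct zone were tried on counts simulated with the same fixed spread for every gene. That trial does not show how they perform at the spread of these data. Python 3.11.15, SciPy 1.17.1 and Matplotlib 3.10.9 were used.

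The genes, the pathway lists, the marker lists and the tests were chosen with earlier results of these data known. Named genes were the 10 members, *Tigar*, the markers, the pathway genes that passed a test (at most 8 per list and comparison, highest mean CPM first) and the genes of highest r with each member; *G0s2* and *Hilpda* were named after their values were seen. The alternatives were total counts, DESeq2 size factors, TMM over 2 libraries, totals without mitochondrial DNA-encoded genes, other filters on low counts, and leaving out each library or region.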

Additional observations from a re-analysis of the deposited data

Results flagged for a closer look

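Among the marker and pathway genes, 2 showed a genotype difference in LV that departed from that in the other 3 regions by the edgeR test added after the LV values were seen. The departure was -5.00 for *Adipoq* (log2; adjusted p = 0.0359) and -5.74 for *Cidec* (adjusted p = 0.0401). Both rested on high counts in the WT LV library, 370 and 388, against 6 and 6 in TKO LV. None of the 10 droplet and triglyceride genes met that test by edgeR, and DESeq2 called *Pnpla2*. Groups held 1 library each, so no library could be compared with others of its group.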

How the results depend on the processing

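Across 7 tests, the number of the 10 genes called stayed within 1.5 times the reported one in 77 of 91 refits. The reported number was 0 for genotype, for border and remote against LV and for both departures. For these tests, a refit that again called none counted as unmoved, so the 77 largely reflect an absence of calls. Scaling to total counts moved the number called from 10 to 5 for the infarct zone against LV and from 8 to 5 (4 lower and 1 higher) against the remote zone. There it turned the log2 difference above 0 for *Plin2*, *Abhd5* and *Dgat1*, to 0.023, 0.0462 and 0.0372 against LV and to 0.562, 0.0387 and 0.227 against the remote zone; by construction it drops the TMM factors. DESeq2 called 1 gene for border against LV and 1 for remote against LV where edgeR called 0, 2 against 0 for the departure in the infarct zone and 1 against 0 for that in LV. Leaving out 1 library gave 9 to 10 for the infarct zone against LV (9 without the WT infarct library), 3 to 9 for infarct against remote, 0 to 2 for border against LV, and 0 to 4 for the departure in the infarct zone and for that in LV; it gave 0 throughout for genotype over all regions and for the remote zone against LV. The departure in a region cannot be estimated without either library of that region, so those refits were not made. Of 50 medians of the 10 ratios under other scalings, 45 stayed between the median lower limit and the median upper limit of the 10 genes' counting intervals. The others were all with total counts, at 1.07 for TKO over WT in the infarct zone, 0.637 (WT) and 0.864 (TKO) for infarct over LV, and 0.682 and 0.775 for WT border and remote over LV.

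No paired analysis was possible because each genotype and region has 1 library and the labels carry no replicate numbers shared between groups; region is already a term of the fits. Zones cut from the same hearts would share animals, which the labels do not settle and the fits do not model. Depth did not limit the 10 genes, whose lowest count was 493, but with 1 library per group the spread between mice is unknown.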
